A study of Mus musculus with 11 samples.

Results

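The genes described here are 46 genes of glucose metabolism, chosen by name: glucose transporters, the enzymes of glycolysis, of the pentose phosphate branch and of glycogen metabolism, the lactate and pyruvate steps that follow, and the carriers that export lactate. All 46 are listed both among the 31518 genes of the table for mouse embryonic stem cells (mESCs) and among the 29450 genes of the table for mouse embryonic fibroblasts (MEFs). The study asked how gene expression responds to the loss of ATXN7L3, the adaptor that activates the deubiquitylases removing ubiquitin from histone H2B (H2Bub1). Poly(A)+ RNA was sequenced from 2 WT (Atxn7l3+/+) and 3 Atxn7l3-/- mESC libraries, and from 3 WT and 3 Atxn7l3-/- MEF libraries, with no treatment. Per the study's methods 1 further WT mESC dataset was left out because it did not group with the others, and it is not analysed here, so the WT mESC spread rests on the 2 libraries kept. The labels give the mESC strain as DBA/2 x C57BL/6. Per the study's methods each mESC line came from a single blastocyst and each MEF culture from a single E10.5 embryo without head and gut, and the deletion was constitutive. The mESCs grew without feeders, after passages on feeders, in high-glucose medium with 15% serum, LIF, PD0325901 (1 µM) and CH99021 (3 µM). The MEFs grew in DMEM with 10% serum, whose glucose content is not given in the sources used here. Levels are counts scaled to a common library size (CPM) with TMM factors over all 11 libraries. Fold changes come from edgeR's quasi-likelihood test, and p-values were adjusted (Benjamini-Hochberg) over all genes tested. A gene is called changed where the adjusted p is 0.05 or less.

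The libraries held between 34515342 and 49602605 counts, and 3 counts, the floor used here, corresponded to between 0.0573 and 0.0938 CPM. Such a floor covers counting error only. Atxn7l3 itself stood at 197 and 203 CPM in WT mESCs and at 3.34, 1.61 and 0.833 CPM in Atxn7l3-/- mESCs. In MEFs it stood at 86.6, 117 and 104 CPM in WT libraries and at 56.5, 55.5 and 73.3 CPM in the libraries labelled Atxn7l3-/-, which lay below all WT libraries without passing the test (log2 fold change −0.74, adjusted p = 0.0715 by edgeR). By western blot the paper reports no detectable ATXN7L3 protein in Atxn7l3-/- cells of either type, and more global H2Bub1 in both. The labelled cell types showed their markers. The 8 pluripotent cell markers summed to between 4382 and 5150 CPM in the mESC libraries. In the MEF libraries, whose table does not list Pou5f1 and Zfp42, the others summed to at most 99.7 CPM. The 10 fibroblast markers summed to between 7552 and 43220 CPM in the MEF libraries, mostly from Col1a1, Col1a2 and Col3a1. Of these 10 genes 7 had log2 fold changes below 0 and 3 above 0 in Atxn7l3-/- MEFs against WT, and 0 were called. Prrx1 stood at 466, 573 and 485 CPM in WT and at 27.9, 6.17 and 341 CPM in Atxn7l3-/- MEFs, and Dcn at 38.3, 382.5 and 25.3 CPM and at 1832, 2445 and 711 CPM. In the mESC libraries the fibroblast markers summed to 25.9 and 99.5 CPM in WT and to between 273 and 394 CPM in Atxn7l3-/- cells. A set of 4 Y-linked genes (Ddx3y, Eif2s3y, Kdm5d and Uty) summed to 6.92 and 1.37 CPM in Atxn7l3-/- mESC replicates 1 and 2 and to 0.830 CPM in WT MEF replicate 3, against between 146 and 535 CPM in the other 8 libraries. Genotype and these Y-linked counts therefore coincided in part in the mESCs, which matters for the 5 X-linked genes of the group.

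Glycolysis splits glucose into pyruvate. Glucose enters the cell through facilitative transporters of the Slc2a family and is trapped by hexokinases, and phosphofructokinase commits it to the pathway under the control of fructose-2,6-bisphosphate, which the Pfkfb enzymes make and remove. Pyruvate is then reduced to lactate and exported by monocarboxylate transporters, or enters the mitochondrial citrate cycle through pyruvate dehydrogenase, which the Pdk kinases switch off. Glucose-6-phosphate can instead feed the pentose phosphate branch, which makes NADPH and ribose, or glycogen. Pluripotent cells are known for high glycolytic flux.

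Several of these genes share sequence with processed pseudogenes, and a read with such a sequence cannot be assigned to one of them. How many reads this removed from the deposited counts was not tested. The transcripts of each gene were cut into overlapping windows of 50 bases, and a window was counted as shared when it also occurs in an annotated pseudogene (GENCODE M21, mm10). The read length is not given in the sources used here. The most shared windows of the coding sequences of Gapdh (glyceraldehyde-3-phosphate dehydrogenase) and Pgam1 (phosphoglycerate mutase) are printed below 5′ to 3′, with the pseudogenes that hold each, because they show this overlap. A Gapdh window in no annotated pseudogene is printed for contrast. Each window comes from the longest coding sequence of its gene. Whether shorter coding sequences of Gapdh hold the last window was not tested.
Gapdh, coding bases 493 to 542, in 80 pseudogenes: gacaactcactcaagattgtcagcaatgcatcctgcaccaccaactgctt
Pgam1, coding bases 451 to 500, in 3 pseudogenes: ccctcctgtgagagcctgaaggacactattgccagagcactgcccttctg
Gapdh, coding bases 1 to 50, in 0 pseudogenes: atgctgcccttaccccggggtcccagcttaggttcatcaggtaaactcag

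Of the windows of their transcripts, 68.0% in Pgk1 (phosphoglycerate kinase), 58.3% in Gapdh and 41.5% in Pgam1 were shared. In the longest coding sequence of Gapdh 60 of 1028 windows occurred in no pseudogene, and in those of Pgk1 and Pgam1 none did (0 of 1202 and 0 of 713). Eno1 (enolase, 36.2%), Pdhb (30.3%), Ldhb (21%), Gpi1 (18.5%), Pkm (18.4%), Taldo1 (10.7%), Ldha (10.4%), Tpi1 (6.83%) and Aldoa (5.38%) followed, and in the other 34 genes at most 1.09% of windows were shared. The counts of Gapdh and Pgk1, both widely used as reference genes, were low in every library. Gapdh stood at 15.1 and 21.6 CPM in WT mESCs, at 14.5, 12.7 and 14.9 CPM in Atxn7l3-/- mESCs, at 5.75, 3.03 and 8.03 CPM in WT MEFs and at 5.57, 6.35 and 9.40 CPM in Atxn7l3-/- MEFs. Pgk1 stood at 6.16 and 16.5 CPM in WT mESCs, at 27.2, 13.9 and 12.2 CPM in Atxn7l3-/- mESCs, at 17.8, 19.9 and 21.4 CPM in WT MEFs and at 21.5, 19.3 and 18.2 CPM in Atxn7l3-/- MEFs. The WT and Atxn7l3-/- libraries of Pgk1 overlapped in both cell types, as did those of Gapdh in MEFs, whereas all 3 Atxn7l3-/- mESC libraries of Gapdh lay below the WT libraries.

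The table rows of the Gapdh pseudogenes, 208 of which are listed for mESCs, held more counts than Gapdh. They summed to between 6250 and 19326 counts in an mESC library, against 562 to 1050 counts on Gapdh, and to between 1102 and 5031 counts in a MEF library, against 97 to 329. When all these counts were added to Gapdh, an alternative chosen after seeing the data, its log2 fold change moved from −0.34 to −0.01 in mESCs and from 0.33 to −0.27 in MEFs, and none of these values passed the test (adjusted p between 0.454 and 0.991 by edgeR). For Pgk1 the rows of 2 listed pseudogenes held at most 1 count in any library, so adding them left its log2 fold change at 0.71 in mESCs and −0.02 in MEFs. The share of reads that fell on pseudogenes also varied between libraries of one group. For Eno1 the pseudogenes held 630 counts against 7320 on the gene in WT mESC replicate 1, and 52 against 20125 in replicate 2. The counts of these 12 genes are read here as listed, and neither their order nor their place among the other genes is taken as a difference in RNA level. The plot of levels against shared windows sets each gene's share beside its reads per kb.

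**Figure D1:**
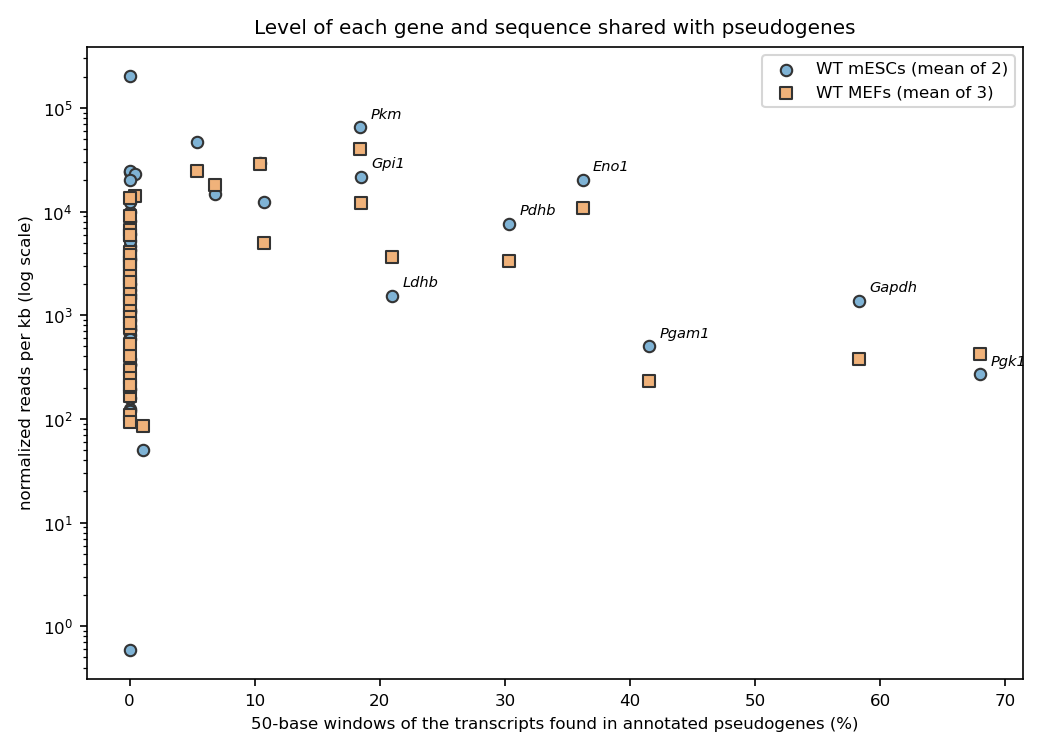
Each point is 1 of the 46 genes in WT mESCs (circles, mean of 2 libraries) or WT MEFs (squares, mean of 3). The x axis gives the percent of 50-base transcript windows found in annotated pseudogenes and the y axis the deposited normalized reads per kb on a log scale. The 3 genes with the largest shares are Pgk1 (68.0%), Gapdh (58.3%) and Pgam1 (41.5%), and 34 of the 46 lie at 1.09% or less.

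The WT libraries show how both cell types differed in these genes before any effect of genotype, with the limit that cell type, culture medium and sample source cannot be told apart. In 1 fit of all 11 libraries, 24 of the 46 genes differed between WT MEFs and WT mESCs, 10 of them higher and 14 lower in MEFs, or 52.2% of the genes against 53.9% of the 19326 genes tested (26.8% higher and 27.1% lower). The share called was therefore near that of all genes. Slc2a3 (GLUT3, the high-affinity transporter typical of neurons and pluripotent cells) stood at 3040 and 2465 CPM in WT mESCs and at 119, 11.8 and 36.5 CPM in WT MEFs, a log2 fold change of −5.62 (SE 0.81, adjusted p = 0.000276 by edgeR). Slc2a1 (GLUT1, the basal transporter) was also lower in MEFs (−2.40), as were Hk2 (−2.80), Pfkp (the platelet-type phosphofructokinase, −2.74), Pfkfb1 (−2.52) and Slc16a1 (MCT1, which carries lactate and pyruvate, −2.47). Higher in MEFs were Pdk2 (2.78), Pdk4 (1.79), Pygb (glycogen phosphorylase, 1.56), Pgls (1.47), Ldhb (1.41), Pfkfb3 (1.31), Eno2 (1.30), Pdk3 (1.11) and Pgm2 (0.69). Hk3, the hexokinase of myeloid cells, had 1 and 3 counts in the WT mESC libraries and between 4.91 and 12.8 CPM in the WT MEFs. The 8 macrophage markers summed to between 267 and 528 CPM in WT MEFs, but of them the mESC table lists Csf1r and Cd68 alone. Csf1r stood at 181.5, 154.5 and 78.7 CPM in WT MEFs and at 3.645 and 2.51 CPM in WT mESCs. Cd68 stood at 28.8, 52.85 and 19.35 CPM in WT MEFs and at 55.8 and 26.2 CPM in WT mESCs. The part of macrophages in the Hk3 level was not tested.

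Shares within a family were taken on the deposited normalized reads per kb of median transcript length, for families whose windows are hardly shared. That length includes short transcripts (574 bases for Slc2a3 and 698 for Slc2a1), so a share compares groups better than it ranks isoforms. Of the 3 glucose transporters, Slc2a3 made up 89.5% ± 0.740 (SD, n = 2) in WT mESCs and 96.6% ± 0.955 (SD, n = 3) in Atxn7l3-/- mESCs. In WT MEFs it made up 38.1% ± 26.5 (SD, n = 3), with Slc2a1 at 56.7% ± 25.9, and in Atxn7l3-/- MEFs 87.8% ± 5.46 (SD, n = 3). Hk2, the inducible hexokinase, made up 57.3% ± 6.94 of the hexokinases in WT mESCs, 12.8% ± 5.49 in WT MEFs and 38.3% ± 11.3 in Atxn7l3-/- MEFs. Among phosphofructokinases Pfkp made up 68.9% ± 4.81 in WT mESCs and 51.9% ± 8.0 in Atxn7l3-/- mESCs, and the muscle-type Pfkm 4.17% ± 0.692 and 9.56% ± 0.911. Among the Pfkfb enzymes Pfkfb1 led in WT mESCs (61.2% ± 7.57) and Pfkfb3 in WT MEFs (52.3% ± 5.71). The share of Pfkfb4 was 21.1% ± 1.76 in WT MEFs and 7.40% ± 2.73 in Atxn7l3-/- MEFs. These shares are descriptions, and the tests are those of the single genes.

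**Figure D2:**
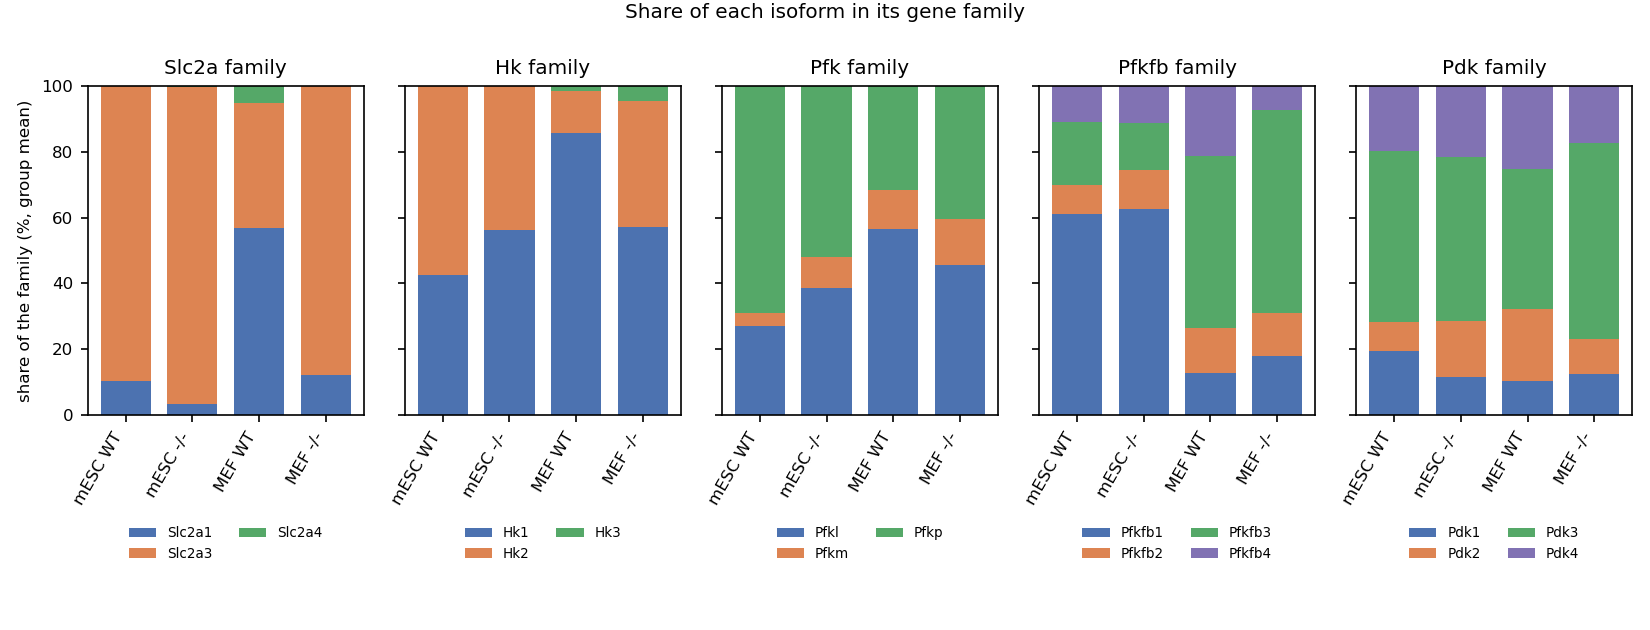
Stacked bars give the mean share (%) of each isoform in its family of genes, on deposited normalized reads per kb, in WT and Atxn7l3-/- mESCs (2 and 3 libraries) and in WT and Atxn7l3-/- MEFs (3 and 3). Slc2a3 made up 89.5% of the glucose transporters in WT mESCs, 38.1% in WT MEFs and 87.8% in Atxn7l3-/- MEFs.

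In Atxn7l3-/- mESCs, 2 of the 45 genes tested were upregulated (Eno2 and Pdk2) and 2 down-regulated (Slc2a1 and Pfkp). These 4 are 8.89% of the genes tested, against 6.96% of all 17800 genes (3.08% higher and 3.88% lower), a share near the background. With the study's further thresholds of a 2-fold change and 10 normalized reads per kb, 3 of the genes remained (6.67% against 4.68% of all genes). The median log2 fold change of the 45 genes was 0.37, against 0.04 over all genes, and 29 of the 45 were above 0. Hk3 had too few counts to be tested.

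Slc2a1 stood at 456 and 330 CPM in WT mESCs and at 166, 206 and 115 CPM in Atxn7l3-/- mESCs, a change of −1.24 on the log2 scale (SE 0.27, adjusted p = 0.0401 by edgeR). The lower of the WT libraries lay above the highest Atxn7l3-/- library. Slc2a3, the more abundant transporter, was measured at 3040 and 2465 CPM and at 3477, 4044 and 4555 CPM (0.60, SE 0.24, adjusted p = 0.146). Slc2a4 (GLUT4, the insulin-responsive transporter of muscle and fat) stood at 2.21 and 2.20 CPM in WT and at 5.24, 3.73 and 18.3 CPM in Atxn7l3-/- mESCs, the largest positive log2 fold change of the group (2.10, SE 0.74), which did not pass (adjusted p = 0.111). Without replicate 3, the highest, it was 1.06.

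Pfkp fell from 477 and 565 CPM to 243, 319 and 256 CPM (−0.89, SE 0.19, adjusted p = 0.0403 by edgeR). The lower WT library lay above the highest Atxn7l3-/- library. Eno2, the enolase of neurons, rose from 12.4 and 10.0 CPM to 28.5, 29.6 and 47.6 CPM (1.70, SE 0.32, adjusted p = 0.0316). Pdk2, a kinase that inactivates pyruvate dehydrogenase, rose from 5.29 and 4.94 CPM to 21.5, 12.5 and 16.6 CPM (1.78, SE 0.36, adjusted p = 0.0344). In both genes every Atxn7l3-/- library lay above both WT libraries. Eno2 and Pdk2 were also higher in WT MEFs than in WT mESCs (27.7 and 35.3 CPM on average in WT MEFs), and the summed fibroblast markers moved with genotype in these mESC libraries, from at most 99.5 to at least 273 CPM. They stayed at most 394 CPM, against at least 7552 CPM in a MEF library, and their part in Eno2 and Pdk2 was not tested. Col1a1, Col1a2 and Col3a1 made up most of the Atxn7l3-/- mESC sums. All 9 tested fibroblast markers had log2 fold changes above 0. Pdgfra (means 2.66 CPM in WT and 2.65 CPM in Atxn7l3-/- mESCs) and Pdgfrb (5.53 and 5.90 CPM) hardly differed.

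Among the genes that did not pass, the 4 Pfkfb genes had log2 fold changes between 0.58 and 1.23 (lowest adjusted p = 0.0758 by edgeR), and Ldhb, the lactate dehydrogenase subunit of oxidative tissues, had 1.49 (SE 0.39, adjusted p = 0.0603). Slc16a3 and Pygl had more negative values than Slc2a1 at lower levels, and neither passed. Slc16a3 (MCT4, the lactate exporter of glycolytic cells) stood at 12.8 and 39.5 CPM in WT and at 7.30, 5.14 and 13.4 CPM in Atxn7l3-/- mESCs (−1.54, SE 0.55, adjusted p = 0.116), with overlapping groups. Pygl, the liver glycogen phosphorylase, stood at 2.63 and 1.75 CPM in WT and at 0.720, 0.922 and 0.563 CPM in Atxn7l3-/- mESCs (−1.53, SE 0.48, adjusted p = 0.0889).

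The mESC calls are fragile. With Atxn7l3-/- replicate 1 left out, 3 genes of the whole table passed edgeR's test, none of them among the 45. With WT replicate 1 or 2 left out, 1 WT library remained, too few to call even Atxn7l3. The calls lost there therefore say nothing about single genes. Pfkp also lost its call without Atxn7l3-/- replicate 3 (−0.86, adjusted p = 0.0582). The 4 genes kept their sign with any one library left out, and their log2 fold changes ranged from −1.47 to −0.97 for Slc2a1, from −1.0 to −0.78 for Pfkp, from 1.41 to 1.87 for Eno2 and from 1.56 to 1.98 for Pdk2. DESeq2 called 10 genes upregulated and 5 down-regulated, beside 19.3% of all genes in either direction.

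Pgk1, G6pdx, Pdha1, Pdk3 and Pfkfb1 lie on the X chromosome. In mESCs all 5 had positive log2 fold changes, between 0.41 and 1.09, and none passed the test (lowest adjusted p = 0.107 by edgeR). In Pgk1 Atxn7l3-/- replicate 2 (13.9 CPM) lay below WT replicate 2 (16.5 CPM). Apart from Pgk1, the levels were highest in the libraries with few Y-linked counts, while Atxn7l3-/- replicate 3 lay near the WT libraries or below them. G6pdx, the rate-limiting enzyme of the pentose phosphate branch, stood at 84.0 and 99.9 CPM in WT, at 176 and 214 CPM in Atxn7l3-/- replicates 1 and 2, which have few Y-linked counts, and at 75.2 CPM in replicate 3. Pfkfb1 stood at 22.2 and 24.01 CPM, at 63.8 and 53.1 CPM and at 25.5 CPM in the same order, and Pdha1, a pyruvate dehydrogenase subunit, at 340 and 396 CPM, at 638 and 508 CPM and at 273 CPM. With replicate 3 as the lone Atxn7l3-/- library, whose spread was then taken from the WT libraries, the 5 log2 fold changes lay between −0.35 and 0.22, an alternative chosen after seeing the data. Over all X-linked genes tested the median log2 fold change was 0.47 with all mESC libraries and −0.32 with replicate 3 alone, against 0.03 and −0.03 on autosomes.

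**Figure D3:**
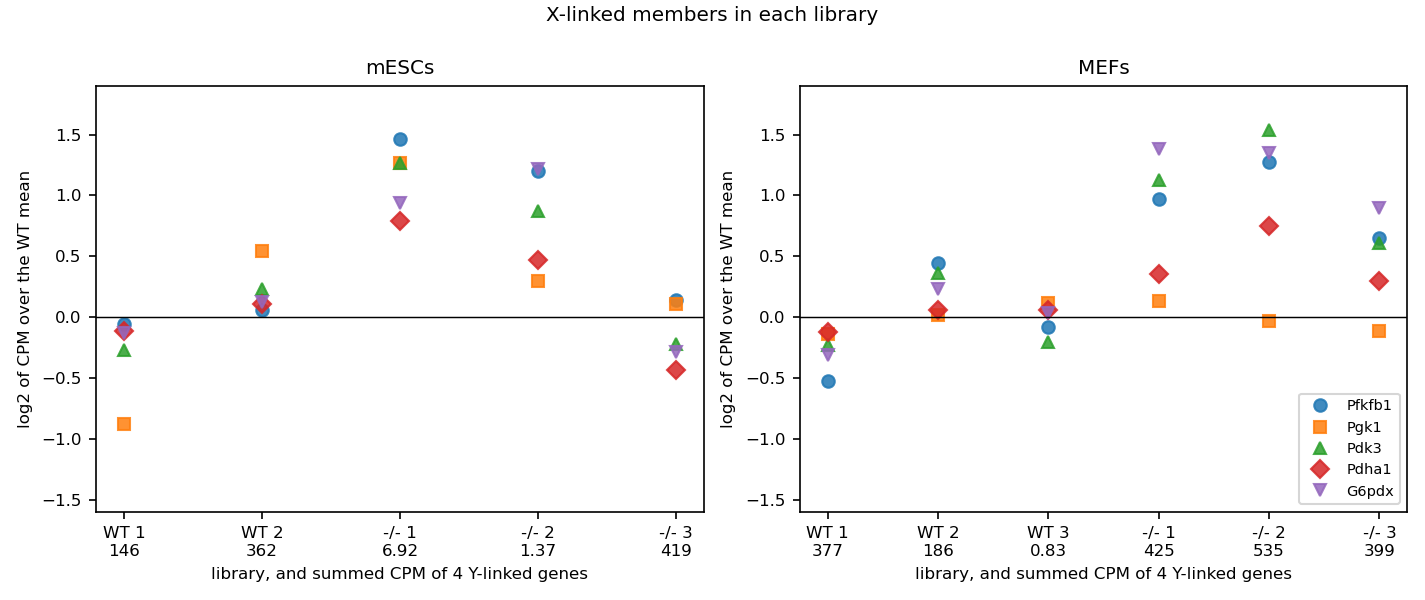
Points give log2 of the CPM over the WT mean for the 5 X-linked genes in each library of mESCs (left) and MEFs (right), with the summed CPM of 4 Y-linked genes under each library. In mESCs the Atxn7l3-/- libraries with 6.92 and 1.37 CPM of Y-linked genes lie above 0 and the one with 419 CPM near or below 0.2, while in MEFs G6pdx is higher in all 3 Atxn7l3-/- libraries, each with at least 399 CPM.

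In Atxn7l3-/- MEFs, 3 of the 46 genes were upregulated (Slc16a1, G6pdx and Pgm2) and 0 down-regulated by edgeR, or 6.52% against 9.41% of all 15958 genes tested (5.01% higher and 4.39% lower). DESeq2 called 7 up and 4 down, beside 24.9% of all genes in either direction. Same-numbered WT and Atxn7l3-/- MEF libraries deviated together. In a fit blocked on that number 5 genes were upregulated (Slc16a1, G6pdx, Slc2a3, Eno3 and Pdk3) and 2 down-regulated (Slc2a4 and Pgls), or 15.2% against 14.0% of all genes (5.50% higher and 8.49% lower). After a correction for GC content in each library 2 were upregulated and 0 down-regulated (4.35% against 7.76% of all genes, 4.52% higher and 3.24% lower), and the study's thresholds left 2 (4.35% against 7.60%). The median log2 fold change was 0.06, against −0.06 over all genes, and 24 of the 46 were above 0. As in mESCs the share called was near that of all genes.

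Slc16a1 stood at 27.8, 36.9 and 22.9 CPM in WT MEFs and at 124, 323 and 74.4 CPM in Atxn7l3-/- MEFs, a log2 fold change of 2.56 (SE 0.55, adjusted p = 0.0404 by edgeR, or 2.31 and 0.0222 with the block). Every Atxn7l3-/- library lay above all WT libraries, with replicate 2 the highest. With the GC correction the value was 2.03 (adjusted p = 0.0600). Slc16a3, the other lactate carrier, was measured at 4.35, 26.7 and 9.57 CPM and at 8.20, 4.81 and 13.3 CPM (−0.62, adjusted p = 0.561).

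G6pdx rose from 59.95, 87.5 and 76.2 CPM to 195, 190 and 139 CPM (1.21, SE 0.22, adjusted p = 0.0273 by edgeR). All 3 Atxn7l3-/- libraries have Y-linked counts, and the WT library without them, replicate 3, lay between the other two. The next enzyme, Pgls (6-phosphogluconolactonase), stood at 26.2, 54.9 and 69.5 CPM in WT and at 12.4, 9.47 and 25.4 CPM in Atxn7l3-/- MEFs (−1.67, SE 0.50, adjusted p = 0.0792, or −1.70 and 0.0382 with the block). Its value shrank to −0.25 (adjusted p = 0.456) after the GC correction, the largest such shift among the genes named. Pgd, the third enzyme, was at 0.27 (adjusted p = 0.439), Tkt (transketolase) at −1.03 (0.134), Taldo1 at 0.26 (0.355) and Rpia at 0.77 (0.162), so the oxidative and non-oxidative steps showed no common direction.

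Pgm2, a phosphoglucomutase that links glucose-6-phosphate with glycogen and lies on chromosome 4, had the smallest spread of the called genes. It stood at 50.6, 56.8 and 56.1 CPM in WT and at 89.7, 92.1 and 92.3 CPM in Atxn7l3-/- MEFs (0.73, SE 0.16, adjusted p = 0.0420 by edgeR, or 0.0568 with the block). RefSeq names this locus Pgm1. The other phosphoglucomutase locus, Pgm1 in the deposited table, had 0.58 (SE 0.18, adjusted p = 0.0869).

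None of the 3 glucose transporters passed in MEFs without the block, and with it Slc2a3 and Slc2a4 passed in opposite directions. Slc2a3 stood at 119, 11.8 and 36.5 CPM in WT and at 477, 182 and 234 CPM in Atxn7l3-/- MEFs (2.37, SE 0.84, adjusted p = 0.109 by edgeR, or 2.85 and 0.0249 with the block). The groups did not overlap, though the WT libraries differed widely among themselves. Slc2a4 stood at 12.6, 8.10 and 3.81 CPM in WT and at 1.88, 0.154 and 0.15 CPM in Atxn7l3-/- MEFs (−3.53, SE 1.12, adjusted p = 0.0880, or −4.26 and 0.0276 with the block). Slc2a1 was at −0.78 (SE 0.30, adjusted p = 0.132).

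The muscle-type isoforms did not move as one. Pgam2, the phosphoglycerate mutase of muscle, stood at 1.75, 3.03 and 1.39 CPM in WT and at 0.717, 0.384 and 0.240 CPM in Atxn7l3-/- MEFs (−2.22, SE 0.58, adjusted p = 0.0593 by edgeR). Eno3, the enolase of muscle, was measured at 23.5, 37.9 and 82.3 CPM and at 59.5, 104 and 291 CPM (1.67, SE 0.70, adjusted p = 0.153, or 1.52 and 0.0218 with the block), overlapping between groups but higher in each same-numbered pair. Striated muscle markers moved in the same libraries. Their 10 genes summed to 69.9 to 177 CPM in WT and 31.2 to 86.9 CPM in Atxn7l3-/- MEFs. Of 7 tested, Acta1 and Myh3 were down-regulated. Myod1 had 71, 3 and 13 counts in WT and at most 1 count in any Atxn7l3-/- library. Ckm, at 4, 1 and 2 counts in WT, was too low to show a change. Tnnt2 of the same list went the other way, at 21.6, 12.1 and 21.3 CPM in WT and at 70.4, 41.2 and 16.0 CPM in Atxn7l3-/- MEFs (1.18, adjusted p = 0.170 by edgeR), and made up most of the Atxn7l3-/- sums. Other markers differed more. The 8 neuron markers summed to 146 to 292 CPM in WT and 9.90 to 47.4 CPM in Atxn7l3-/- MEFs, and the 8 epithelial and mesothelial markers to 15.0 to 38.1 CPM and 2519 to 3731 CPM. Upk3b and Msln made up most of the latter Atxn7l3-/- sums, with means of 1937 and 813 CPM. Of the 7 tested markers of that list 5 had log2 fold changes above 0 and 2 below. Cdh1 (means 1.22 and 0.408 CPM) and Krt19 (9.91 and 7.78 CPM) were lower in Atxn7l3-/- MEFs on average. The part of these cell types in the values above was not tested, and in bulk RNA fewer cells of a type and less RNA per cell cannot be told apart.

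Pdk3, whose kinase also inactivates pyruvate dehydrogenase, had 1.13 in MEFs (SE 0.29, adjusted p = 0.0581 by edgeR, or 1.11 and 0.0314 with the block). Of the enzymes of the main trunk, the 9 named next were called in neither cell type. In MEFs the log2 fold changes of Gpi1, Aldoa, Tpi1, Gapdh, Pgk1, Pgam1, Eno1, Pkm and Ldha lay between −0.52 and 0.33, and their adjusted p between 0.448 and 0.960. In mESCs the same 9 genes lay between −0.61 and 0.71, with adjusted p between 0.168 and 0.723, although all Atxn7l3-/- libraries of Gapdh, Pgam1 and Pkm lay below both WT libraries. Pfkp and Eno2, described above, are the trunk enzymes that were called in mESCs, Pfkp lower and Eno2 higher in Atxn7l3-/- cells. With standard errors up to 0.73, even changes of more than 2-fold could have gone undetected in some of the 9 genes. In the same MEF fit Eno3, at 1.67 with a standard error of 0.70, did not pass.

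The MEF calls also depended on single libraries. Without WT replicate 1 or 3, or without Atxn7l3-/- replicate 1 or 2, none of the 3 was called, while the share called among all genes fell to between 1.20% and 2.85%. Without WT replicate 2, G6pdx was called and the other 2 were not, and without Atxn7l3-/- replicate 3 Slc16a1 and G6pdx were. Pgm2 thus lost its call with any one library left out (adjusted p between 0.0552 and 0.1331 by edgeR). All kept their sign, with log2 fold changes from 1.76, without Atxn7l3-/- replicate 2, to 2.93 for Slc16a1, from 1.09 to 1.36 for G6pdx and from 0.70 to 0.78 for Pgm2. Slc2a4 was called without Atxn7l3-/- replicate 1 (fold change −5.72 on the log2 scale, adjusted p = 0.03995 by edgeR) and Pgls without replicate 3 (−2.21, adjusted p = 0.0418).

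**Figure D4:**
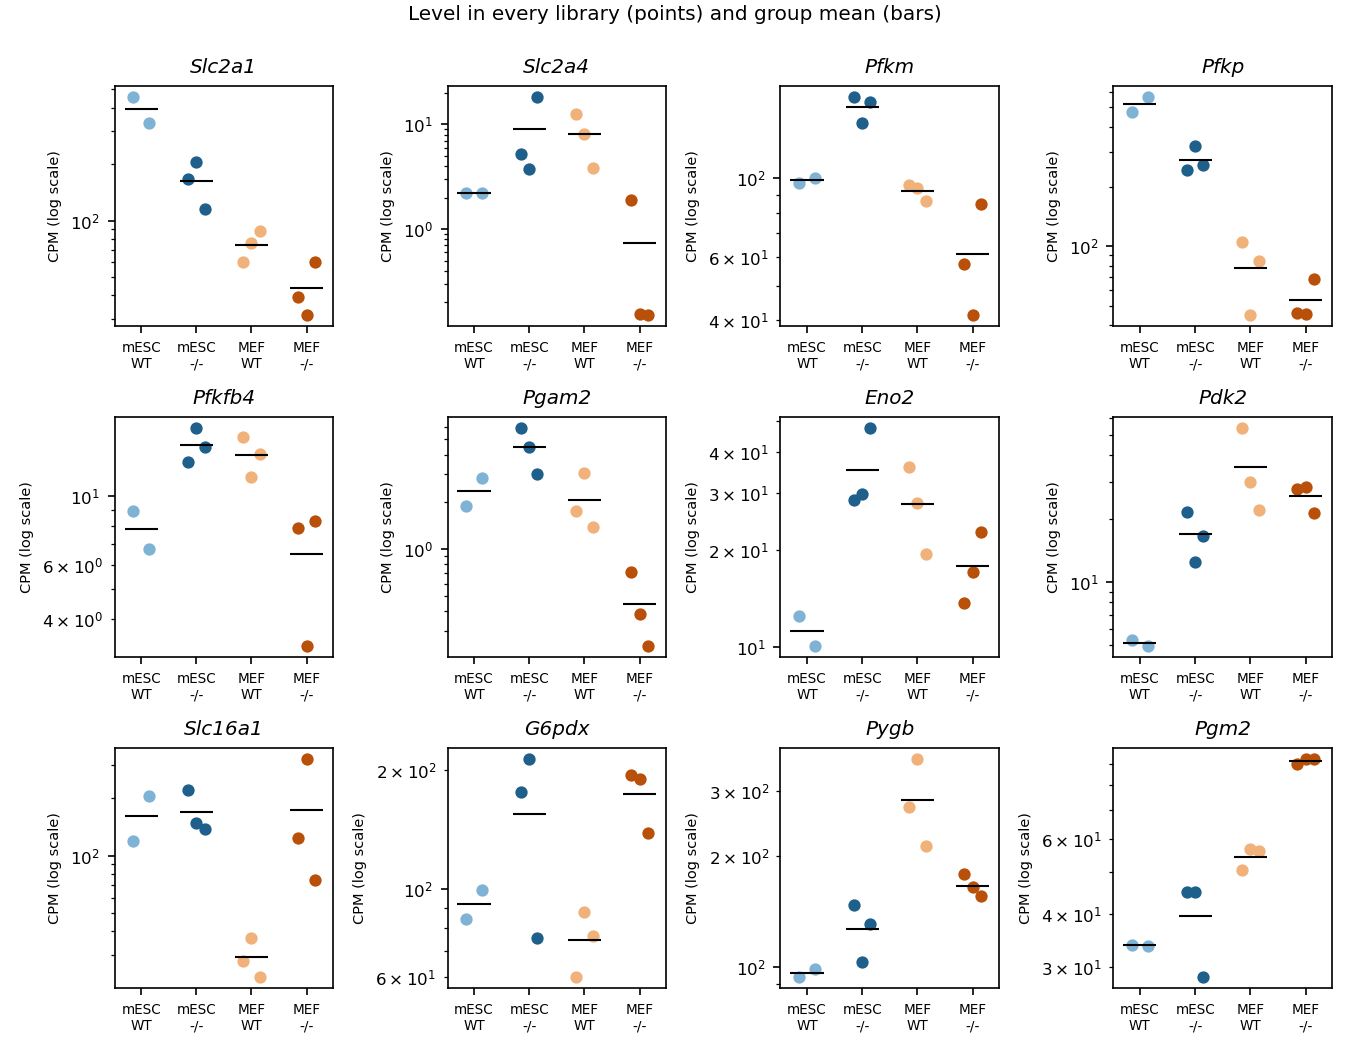
Points give the CPM (log scale) in every library and bars the group mean for the 12 genes called in mESCs, in MEFs or in the test of the difference between them. Slc2a1 and Pfkp are lower and Eno2 and Pdk2 higher in Atxn7l3-/- mESCs, Slc16a1, G6pdx and Pgm2 are higher in Atxn7l3-/- MEFs, and G6pdx in mESCs is split within the Atxn7l3-/- group.

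Whether the genotype acted differently in both cell types was tested as an interaction in the fit of all 11 libraries. The difference passed for 8 of the 46 genes, or 17.4% against 11.4% of the 19326 genes tested (6.14% higher and 5.27% lower in MEFs). In 7 of them (Slc2a4, Pfkm, Pfkfb4, Pgam2, Eno2, Pdk2 and Pygb) the log2 fold change was lower in MEFs than in mESCs, being positive in mESCs and negative in MEFs, and in Slc16a1 it was higher in MEFs. The differences ranged from −5.52 for Slc2a4 (adjusted p = 0.0436 by edgeR) to −1.17 for Pygb (0.0478), and that of Slc16a1 was 2.51 (SE 0.70, adjusted p = 0.0432). Pfkm, the muscle-type phosphofructokinase, stood at 97.0 and 100.3 CPM in WT and at 169, 143 and 163 CPM in Atxn7l3-/- mESCs, and at 95.8, 94.0 and 86.1 CPM in WT and 57.6, 41.2 and 84.5 CPM in Atxn7l3-/- MEFs. In each cell type its groups did not overlap, in opposite directions, and neither change passed alone (adjusted p = 0.0590 and 0.199). Pfkfb4 behaved alike, with 8.95 and 6.71 CPM against 12.9, 16.5 and 14.3 CPM in mESCs and 15.4, 11.4 and 13.6 CPM against 7.86, 3.28 and 8.29 CPM in MEFs. Pygb was measured at 93.7 and 98.9 CPM against 147, 103 and 130 CPM in mESCs and at 271, 366 and 212 CPM against 178, 164 and 156 CPM in MEFs. Pgam2 was measured at 1.89 and 2.82 CPM against 5.91, 4.44 and 3.00 CPM in mESCs. Eno2 and Pdk2 in MEFs stood at 35.9, 27.8 and 19.4 CPM against 13.6, 17.1 and 22.6 CPM and at 54.0, 29.8 and 21.9 CPM against 27.7, 28.3 and 21.3 CPM, overlapping between groups. Slc16a1 in mESCs stood at 119 and 206 CPM against 223, 149 and 137 CPM.

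With the replicate block within each cell type, 3 genes passed (Slc2a4 and Pdk2 lower and Eno3 higher in MEFs), or 6.52% against 7.15% of all genes (3.18% higher and 3.96% lower). With the GC correction 1 gene lower in MEFs was among those that passed, beside 8.76% of all genes in either direction, and with the mESC libraries that have Y-linked counts alone 1 was, beside 3.61%. Without single libraries the number lower in MEFs ranged from 0, without WT mESC replicate 1 or 2, to 10, without Atxn7l3-/- MEF replicate 3.

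The other genes of glucose metabolism and its regulators were taken from fixed lists. Over all genes tested 6.96% were called in mESCs and 9.41% in MEFs, in either direction. The counts below are given beside these shares and are not read as results about the lists. Of 52 further pathway genes, 43 were tested in mESCs and 3 were upregulated: Ldhd (D-lactate dehydrogenase, 1.84), Prps2 (which makes phosphoribosyl pyrophosphate from ribose-5-phosphate, 1.32) and Phka2 (a phosphorylase kinase subunit, 1.33). Prps2 and Phka2 are X-linked and had the lowest of their Atxn7l3-/- levels in replicate 3, at 97.1 and 57.1 CPM, which was still above both WT libraries. In MEFs 38 were tested, with H6pd (the glucose-6-phosphate dehydrogenase of the endoplasmic reticulum, 2.34) and Gbe1 (glycogen branching enzyme, 1.36) upregulated and Fbp1 (fructose-1,6-bisphosphatase, −4.59) and Pgm5 (a phosphoglucomutase-like protein of adherens junctions, −3.11) down-regulated. H6pd stood at 46.8, 123 and 71.4 CPM in WT and at 413, 429 and 388 CPM in Atxn7l3-/- MEFs, so that, with G6pdx, both genes for a glucose-6-phosphate dehydrogenase on these lists were upregulated. Fbp1 had 40, 143 and 29 counts in WT and 2, 6 and 1 counts in Atxn7l3-/- MEFs, the latter near the floor. It lost its call in 7 of 17 alternatives. With the GC correction Gbe1 (0.93, adjusted p = 0.0607 by edgeR) and Fbp1 (−4.46, 0.055) missed the threshold. H6pd lost its call without WT replicate 3 (2.27) or Atxn7l3-/- replicate 1 (2.37) or 2 (2.32). Of the 20 citrate cycle genes tested, Idh2 (0.92) was upregulated in mESCs and Suclg2 (1.82) in MEFs, and none was down-regulated.

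Of 14 regulators, 13 were tested in mESCs, with 1 higher and 2 lower, beside 6.96% of all genes called in either direction. Myc, a transcription factor that can induce many glycolytic genes, stood at 7.69 and 7.41 CPM in WT and at 0.154, 0.557 and 0.180 CPM in Atxn7l3-/- mESCs (−4.61, SE 0.62, adjusted p = 0.0211 by edgeR). Trp53 fell too (−1.25), and Mlxipl, which encodes the glucose-responsive factor ChREBP, rose (1.66). In MEFs Epas1 (HIF-2α) fell by 3.98 on the log2 scale, from 105, 32.1 and 58.5 CPM to 5.71, 4.2 and 2.76 CPM. Mycn (3.33) and Tigar (a fructose-2,6-bisphosphatase, 1.26) rose there, with Tigar at 1.30 and an adjusted p of 0.0535 by edgeR with the replicate block. Without Atxn7l3-/- replicate 2 Epas1 was at −3.97 (adjusted p = 0.0548), and Mycn lost its call without WT replicate 3 (3.40) or Atxn7l3-/- replicate 1 (3.44) or 2 (3.25). In the blocked MEF fit 2 of 14 regulators were higher and 2 lower. Of 20 citrate cycle genes 2 were higher there, beside 14.0% of all genes called in either direction. Of the 16 tested genes that hypoxia induces outside glycolysis, P4ha1 (1.59) rose and Egln1 (−1.09) and Kdm3a (−1.30) fell in mESCs, and Ero1l (1.56) rose and Egln1 (−0.92) fell in MEFs. Both directions thus occurred in each cell type. In mESCs all these calls were lost without WT replicate 1 or 2, where 1 WT library remained and even Atxn7l3 was not called.

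Finally, promoters were searched for the E-box CACGTG, which MYC and ChREBP can bind, and for the shorter ACGTG, the core shared by that E-box and by hypoxia response elements, on both strands. RefSeq promoters (GRCm38.p6, 250 bases before to 50 after the start) were found for 44 of the 46 genes, with Slc2a3 and Slc2a4 not matched. ACGTG occurred in 21 of the 44 (47.7%), against 19.7% of all 27025 genes with a promoter and 24.5% of the 12038 of them expressed in either cell type. CACGTG, whose matches are part of the former, occurred in 5 (11.4%), against 7.24% and 9.86%. The 5 were Slc16a1, Pdk2, Pfkm, Pfkfb2 and Ldha. The stretches of Slc16a1, Pdk2 and Pfkm are shown because these 3 genes passed a test above, 5′ to 3′ on the gene's strand with the motif in capitals.
Slc16a1, chr3:104638452-104638481, plus strand: gcggcgccgggtCACGTGgcgggaaggggg
Pdk2, chr11:95041480-95041509, minus strand: ctcgaggagagcCACGTGtcgaagcgcaag
Pfkm, chr15:98092441-98092470, plus strand: aattaagtatgcCACGTGaagtaagtaatt
In Atxn7l3-/- mESCs Myc was down-regulated and Mlxipl, which encodes ChREBP, was upregulated. Mycn, not called in mESCs, stood at 34.9 and 54.3 CPM in WT and at 12.4, 38.0 and 6.71 CPM in Atxn7l3-/- mESCs. The 5 genes had log2 fold changes of 0.12, 1.78, 0.74, 1.23 and −0.33 there, and Pdk2 alone of them passed. The part of these factors in the 5 genes was not tested. The match says nothing about binding, which was not measured here.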

How the data were processed

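Deposited per-gene read counts of mESCs and MEFs were used. The submitters' processing notes name cutadapt 1.10, STAR 2.5.3a (mm10), HTSeq 0.6.1p1 and DESeq2 1.16.1. Libraries were TruSeq Stranded mRNA, and the use of strand in counting is not given in the sources used here. The deposited normalized signal is counts divided by DESeq2 size factors, in 1 column set, and these values per kb of median transcript length in another. The authors' fold change and p-value columns were not used. Aldoa has a second row (0 to 8 counts) that was left out.

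Counts were filtered with filterByExpr, normalized by TMM and tested with edgeR 4.0.16 in R 4.3.3, per cell type, and in 1 fit of 11 libraries for WT MEFs against WT mESCs and the interaction. Benjamini-Hochberg adjustment covered every gene tested. Levels use TMM factors of that joint fit. Same-numbered MEF libraries deviated from their group means together (r = 0.473, 0.161 and 0.240 across genes), so block results are given there. The pairing comes from the labels' replicate numbers alone. Alternatives were other normalizations (RLE, upper quartile, TMM without X and Y), filters, DESeq2 1.42.0, a GC offset (lowess span 0.3), the block, added pseudogene counts and left-out libraries. Scripts were tested on simulated counts. Values per library are given for genes called in either cell type or in the interaction, for Gapdh and Pgk1 and for the 3 largest changes each way. The genes and lists were chosen with earlier results of these data known. P-values measure the spread between lines or cultures of single embryos.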

Additional observations from a re-analysis of the deposited data

Results flagged for a closer look

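The effect of genotype differed between the cell types (interaction term, edgeR, Benjamini-Hochberg adjusted p between 0.0189 and 0.0484) for 8 genes, given here as the log2 fold change in MEFs minus that in mESCs. The difference was −5.52 for Slc2a4, −3.11 for Pgam2, −2.29 for Eno2, −2.17 for Pdk2, −1.95 for Pfkfb4, −1.27 for Pfkm, −1.17 for Pygb and 2.51 for Slc16a1. In the joint fit the log2 fold changes behind them ran from 2.04 in mESCs to −3.48 in MEFs for Slc2a4 and from 0.07 to 2.57 for Slc16a1. No group held the 4 libraries needed to test a single library as an outlier.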

How the results depend on the processing

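In mESCs, where 2 genes were called higher and 2 lower, the numbers were 7 and 4 without a filter on low counts (beside 9.63% of all genes called in either direction) and 10 and 5 with DESeq2 (19.3%). They were 1 and 0 in 1 fit of all 11 libraries (2.31%). With the replicate number as a block they were 4 and 0 (8.06%), and 5 were higher with the block and the GC offset together (9.95%). Same-numbered mESC libraries did not deviate together (r = 0.00777 and −0.172), so the mESC block is given here alone. With the mESC libraries that have Y-linked counts alone 8 were higher (beside 20.8% of all genes in either direction), and the study's thresholds left 1 lower. Leaving out single libraries gave 0 to 5 higher and 0 to 2 lower. In MEFs, with 3 higher and 0 lower, DESeq2 gave 7 and 4 (24.9% of all genes), the replicate block 5 and 2 (14.0%), the block with the GC offset 5 and 1 (10.7%), 1 fit of all libraries 5 and 4 (18.5%), and left-out libraries 0 to 3 and 0 to 3. Between WT MEFs and WT mESCs left-out libraries gave 4 to 10 higher and 9 to 15 lower. For the difference between cell types, with 1 higher and 7 lower, DESeq2 gave 2 higher (22.6% of all genes), no filter 4 lower (6.86%), the GC offset 1 lower (8.76%), the replicate block 2 lower (7.15%), the Y-linked libraries alone 0 higher and 1 lower (3.61%), and left-out libraries 0 to 1 higher and 0 to 10 lower. With 1 WT mESC library left, that library was assumed to vary like the others.

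Gapdh in MEFs turned from 0.33 to −0.27 (log2) with annotated pseudogene counts added. Pgk1 in MEFs, at −0.02, was 0.0012 with TMM without X and Y genes, 0.0073 without a filter and between −0.069 and 0.060 without single libraries. The cause was not tested for these changes. Among the 46 genes the block changed no call in MEFs beyond Slc2a3, Slc2a4, Eno3, Pdk3, Pgls and Pgm2. With 2 or 3 libraries a group, small changes were not detectable.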
